A study of Rattus norvegicus with 10 samples.

Results

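A list of 38 genes of the unfolded protein response and the early secretory pathway was examined in rat submandibular gland. A gene entered when the array carried a probe whose RefSeq accession gave its symbol, and the probe with the highest mean log2 value over the arrays stood for the gene. This held for 33 of the 38 genes, out of 14711 named genes tested. Manf, Edem1, Derl2, Sec23b and Sec24d had no such probe and were not analysed here. The array data came from 5 male spontaneously hypertensive rats (SHR, inbred animals whose blood pressure rises with age) and 5 male Wistar-Kyoto rats (WKY, the related strain with normal pressure), all aged 14 weeks, with 1 one-colour Agilent array of gland RNA per animal. The study profiled messenger and circular RNAs of this gland in hypertension, and no animal was labelled as treated. High blood pressure and the other inherited differences between these inbred strains cannot be told apart in this design.

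Salivary gland cells export large amounts of protein, which is threaded into the endoplasmic reticulum (ER), folded by chaperones, cross-linked by disulfide enzymes and packed into COPII vesicles for the Golgi. When unfolded protein builds up, the sensors ATF6, IRE1 (gene Ern1) and PERK (Eif2ak3) start the unfolded protein response. ATF6 and the transcription factor XBP1 raise chaperones and degradation factors, while PERK slows translation and leads through ATF4 to CHOP (Ddit3) and TRIB3.

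Many genes of this response carry the ER stress response element, which ATF6 binds together with NF-Y and which XBP1 can also use. It is CCAAT and CCACG with 9 bases between, written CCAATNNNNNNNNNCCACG. RefSeq promoter windows of assembly GRCr8, from 250 bases before the annotated start to 50 after it, were matched by symbol for 29 of the 38 genes and searched on both strands. The element lay in 7 of the 29 (24.1%), against 21 of 27457 genes with a window (0.0765%). They include the chaperone genes Hspa5, Hsp90b1, Calr and Dnajc3, the disulfide gene Creld2 and the factor gene Xbp1. Each of these is shown on the strand that reads CCAAT first, with 10 bases on either side and with the CCAAT and CCACG boxes in capitals, because ATF6 and XBP1 are known to act through this element.
Hspa5, chr3:38452963-38453001, plus strand: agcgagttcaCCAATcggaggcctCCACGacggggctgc
Hsp90b1, chr7:23012441-23012479, minus strand: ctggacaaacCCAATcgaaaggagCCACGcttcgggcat
Hsp90b1 (another copy), chr7:23012337-23012375, plus strand: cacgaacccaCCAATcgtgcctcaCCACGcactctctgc
Calr, chr19:40213125-40213163, minus strand: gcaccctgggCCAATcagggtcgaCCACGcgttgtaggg
Dnajc3, chr15:102432524-102432562, plus strand: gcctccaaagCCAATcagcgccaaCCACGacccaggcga
Creld2, chr7:121789229-121789267, minus strand: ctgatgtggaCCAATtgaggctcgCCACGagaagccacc
Xbp1, chr14:84604548-84604586, plus strand: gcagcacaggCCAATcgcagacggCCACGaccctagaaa

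The Hspa5 element ended 25 bases before the annotated start. The 250 bases before that start, at chr3:38452766-38453015 on the plus strand, are given whole because Hspa5, which encodes the chaperone BiP, is the standard readout of this response. The boxes of the element are again in capitals.
Hspa5 promoter: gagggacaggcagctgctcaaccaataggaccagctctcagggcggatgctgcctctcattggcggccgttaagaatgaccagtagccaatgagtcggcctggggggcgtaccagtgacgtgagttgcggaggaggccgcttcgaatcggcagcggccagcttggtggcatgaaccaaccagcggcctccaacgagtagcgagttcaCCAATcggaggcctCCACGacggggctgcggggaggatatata

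With 1 letter free in the last box (CCAATNNNNNNNNNCCANG) the element was also in the window of Sel1l, which made 8 of 29 (27.6%) against 0.35% of all genes with a window. A second form of the element, ATTGGNCCACG, lay in Hyou1, Herpud1 and Dnajb11, 3 of 29 (10.3%) against 0.0619% of all genes. It is shown with its letters in capitals, apart from that of Dnajb11, which reaches the start itself.
Hyou1, chr8:53602684-53602714, minus strand: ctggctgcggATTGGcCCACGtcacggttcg
Hyou1 (another copy), chr8:53602784-53602814, minus strand: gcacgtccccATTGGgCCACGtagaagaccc
Herpud1, chr19:10614811-10614841, minus strand: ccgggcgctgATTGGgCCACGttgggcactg
The XBP1 and ATF6 recognition sequence TGACGTGG was in the Hyou1 window alone, where it overlaps the copy listed first (1 of 29, or 3.45%, against 0.681%). The sequence TGATGNAA, to which ATF4 binds as a partner of C/EBP proteins, was in Trib3 and Herpud1 (2 of 29, or 6.9%, against 4.16%). A match is a description of these letters, not a shown binding site.

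Levels below are log2 processed intensity minus the array's own 75th percentile, and a difference is SHR minus WKY on that log2 scale. On every array 94.8% to 97.7% of the 42877 spots were well above background, and the 75th percentile lay between 333 and 648 intensity units. All 33 probes were above background on all 10 arrays and saturated on 0. Arrays with the same scan time in the headers were taken as 1 slide, since slides are not named there. On that reading, SHR 2-3, 3-1, 3-3 and 3-4 were on slide 1 and SHR 2-1 on slide 2. WKY 1-5, 4-1 and 4-2 shared slide 2, and WKY 1-2 and 1-3 were on slide 3, so slide 2 alone held both strains. Array SHR 3-3 stood apart, with 420 genes at least 2-fold below the other SHR arrays, against 31 to 45 for each of those. The 9 acinar and 9 granular duct markers read were each above background on every array. So were 3 markers of the parotid and sublingual glands, so this reading cannot check the gland label. In this whole-gland RNA, fewer cells of a type and less RNA per cell cannot be told apart.

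No gene of the list passed the test for a strain difference. By limma, with p-values adjusted over all 14711 genes by the Benjamini-Hochberg method, 0 of the 33 were higher in SHR and 0 lower at an adjusted p below 0.05. Among all genes 1.51% were higher and 2.85% lower, 4.36% in all. At an unadjusted p below 0.05, 4 of the 33 passed (12.1%, against 20.3% of all genes). In 1 of the 33 the arrays of the strains did not overlap (3.03%, against 7.25%). The median difference over the 33 genes was 0.05, with 20 above 0 and 13 below, and it was −0.02 over all genes. Leaving out each array in turn gave a median of 0.01 to 0.09 for the 33 genes, and the slide as a fixed block gave −0.04, against 0.03 over all genes. For 32 of the 33 genes the whole 95% confidence interval lay within 2-fold either way, as it did for 13991 of all 14711 genes. The median half-width was 0.29 for the 33 genes and 0.25 over all genes. Dnajb9 was the exception among the 33, with an interval from −1.02 to 0.19. With the slide as a random block, the estimated correlation was negative (−0.19). In that limma fit the 4 genes that passed unadjusted also passed adjusted (Eif2ak3 0.00958, Syvn1 0.00653, Trib3 0.00431 and Ssr2 0.0210). The same fit called 1350 of all 14711 genes higher and 2101 lower, against 222 and 419 without a block. With the slide as a fixed block the strain estimate rests on slide 2, SHR 2-1 against WKY 1-5, 4-1 and 4-2. Those arrays are too few to decide which genes pass.

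**Figure D1:**
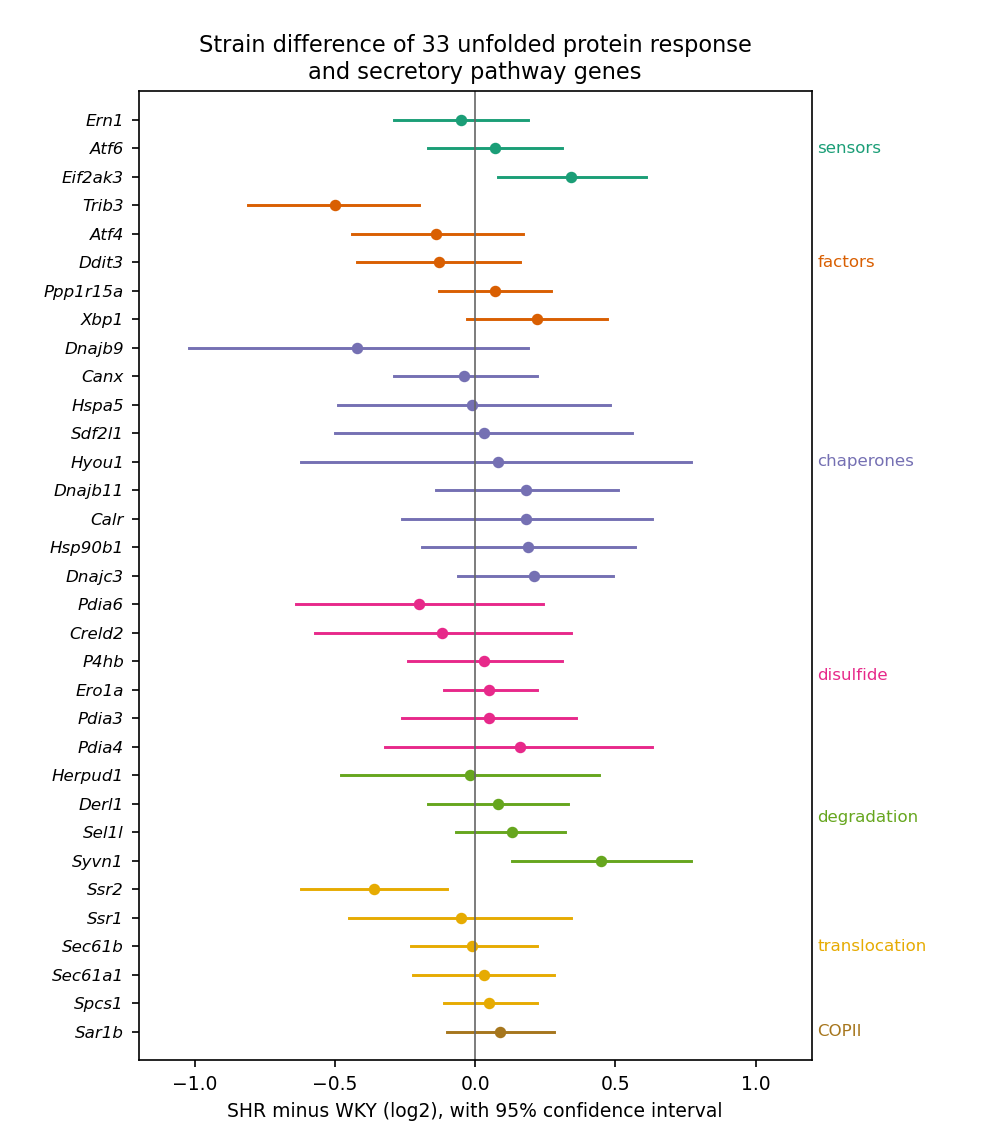
Difference between strains for each of the 33 genes (SHR minus WKY, log2, n = 5 and 5), with 95% confidence intervals from limma, ordered and coloured by role. Points run from −0.50 for Trib3 to 0.45 for Syvn1, and 4 intervals, those of Eif2ak3, Trib3, Syvn1 and Ssr2, leave out 0.

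Of the 3 sensors, Eif2ak3 had the largest difference. It encodes PERK, which phosphorylates the initiation factor eIF2α. Its level was 2.28, 2.47, 2.35, 2.84 and 2.31 in SHR 2-1, 2-3, 3-1, 3-3 and 3-4, and 2.35, 1.96, 2.16, 1.95 and 2.12 in WKY 1-2, 1-3, 1-5, 4-1 and 4-2; all later values follow this order. SHR 3-3 was the highest, and WKY 1-2 lay within the SHR range. The difference was 0.34 ± 0.12 (SE, adjusted p = 0.133), and 0.25 (adjusted p = 0.173) without SHR 3-3. Atf6 differed by 0.07 (95% interval −0.17 to 0.31), and Ern1, which encodes the kinase and ribonuclease that splices Xbp1 RNA, by −0.05 (−0.29 to 0.19). The probe measured total Xbp1, and its spliced form was not measured separately.

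The factor genes did not move as one, with 2 of 5 above 0 and a median of −0.13. Xbp1, the driver of the chaperone and degradation programme, stood at 6.56, 6.39, 6.36, 6.90 and 6.52 in SHR and at 6.42, 6.41, 6.46, 6.23 and 6.11 in WKY. The strains overlapped, SHR 3-3 was the highest and WKY 4-2 the lowest. Its difference was 0.22 ± 0.11 (SE, adjusted p = 0.308), but 0.00 with normexp correction and quantile normalization, −0.02 with quantile normalization alone and −0.04 in the authors' deposited values.

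Atf4, the factor translated when PERK is active, read 3.79, 4.37, 4.05, 4.63 and 4.26 in SHR and 4.22, 4.29, 4.56, 4.44 and 4.27 in WKY. SHR held both the lowest and the highest array, and the difference was −0.14 ± 0.14 (SE, adjusted p = 0.634). Ddit3, which encodes the pro-apoptotic factor CHOP, read 0.32, 0.48, 0.52, 0.41 and 1.06 in SHR and 0.82, 0.54, 0.77, 0.70 and 0.59 in WKY. SHR 3-4 alone lay above WKY, while the other 4 SHR arrays lay below every WKY array. The Ddit3 difference was −0.13 ± 0.13 (SE, adjusted p = 0.630). Ppp1r15a, whose product GADD34 reverses eIF2α phosphorylation, differed by 0.07 (95% interval −0.13 to 0.27).

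Trib3, a pseudokinase gene induced by ATF4 and CHOP, had the largest difference of the list. Its level was −0.60, −1.02, −0.49, −0.72 and −0.43 in SHR and 0.05, −0.23, 0.17, −0.33 and −0.39 in WKY. Every SHR array was below every WKY array, but SHR 3-4 and WKY 4-2 were only just apart. The difference was −0.50 ± 0.14 (SE, 95% interval −0.81 to −0.20), with an adjusted p of 0.0611 that missed the threshold. It was −0.41 within slide 2, where 1 SHR array stands against 3 WKY arrays.

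The chaperone genes varied widely between animals of one strain. Their median residual SD within strain was 0.38, against 0.18 for all genes tested. Their differences between strains ran from −0.42 to 0.21 with a median of 0.08 and 6 of 9 above 0. That median was 0.21 without SHR 3-1, 0.19 without WKY 4-2 and 0.00 without SHR 2-3 or SHR 3-3. Hspa5, which encodes the main ER chaperone BiP, read 4.34, 5.05, 3.87, 5.08 and 4.53 in SHR and 4.48, 4.38, 4.43, 4.53 and 5.09 in WKY. SHR 2-3, SHR 3-3 and WKY 4-2 were high and SHR 3-1 was low. The strain means were both 4.58, with a difference of −0.01 ± 0.22 (SE, 95% interval −0.49 to 0.48, adjusted p = 0.991).

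Hsp90b1, which encodes the chaperone GRP94, read 1.95, 2.46, 1.86, 2.40 and 2.12 in SHR and 1.99, 1.71, 1.74, 1.80 and 2.58 in WKY. The same 3 arrays were the highest, and the difference was 0.19 ± 0.17 (SE, adjusted p = 0.571). Calr, the lectin chaperone calreticulin, read 0.97, 1.48, 0.60, 1.61 and 1.06 in SHR and 1.08, 1.03, 0.70, 0.56 and 1.45 in WKY. Here too SHR 2-3, SHR 3-3 and WKY 4-2 were the highest, and the low arrays were WKY 4-1 and SHR 3-1 (difference 0.18 ± 0.20, SE, adjusted p = 0.663).

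Dnajb11, a co-chaperone of BiP, read 0.98, 1.39, 0.87, 1.43 and 0.86 in SHR and 0.93, 0.80, 0.79, 0.77 and 1.34 in WKY. The 3 high arrays were again SHR 2-3, SHR 3-3 and WKY 4-2, and the difference was 0.18 ± 0.15 (SE, adjusted p = 0.529). Dnajc3, the co-chaperone p58IPK that also restrains PERK, read 1.82, 1.77, 1.79, 1.82 and 1.72 in SHR and 1.78, 1.36, 1.59, 1.20 and 1.92 in WKY. Its SHR arrays lay close together (SD 0.04) inside a wider WKY range (SD 0.30), with a difference of 0.21 ± 0.13 (SE, adjusted p = 0.374).

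Dnajb9, which encodes the BiP partner ERdj4 that holds IRE1 in check, departed from the other chaperones. It read −1.17, 0.61, −0.61, −1.20 and −0.69 in SHR and −0.20, −0.37, −0.07, −0.25 and −0.10 in WKY. SHR 2-3 lay above every WKY array and the other 4 SHR arrays below every one. The difference was −0.42 ± 0.28 (SE, adjusted p = 0.428). Without SHR 2-3 it was −0.72 (adjusted p = 0.0183). Of the alternatives run, this was the only one in which Dnajb9 passed.

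Hyou1 and Sdf2l1 were not named by the rule of size and are described because of their spread, seen in the data. Hyou1, a large relative of Hsp70 that exchanges nucleotide on BiP, read 3.62, 3.87, 2.21, 4.54 and 3.50 in SHR and 3.48, 3.51, 3.43, 3.27 and 3.66 in WKY. The SHR values (SD 0.85) lay on both sides of a narrow WKY range (SD 0.14), and the residual SD of 0.61 was at the 98.3rd percentile of all genes. The difference of 0.08 became 0.41 without SHR 3-1 and −0.17 without SHR 3-3, and neither passed the threshold (adjusted p = 0.239 and 0.768).

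Sdf2l1, a stress-induced partner of ER J-domain proteins, differed by 0.03 with a residual SD of 0.46. Canx, which encodes the membrane lectin calnexin, differed by −0.04 with a residual SD of 0.19, near the median of all genes. A separate Sdf2l1 probe read 0.82, 1.13, 0.32, 1.20 and 0.57 in SHR and 0.90, 0.24, 0.66, 0.35 and 1.39 in WKY. As with the probe used for the gene, SHR 3-3 was the highest and SHR 3-1 the lowest SHR array, and WKY 4-2 was the highest WKY array.

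**Figure D2:**
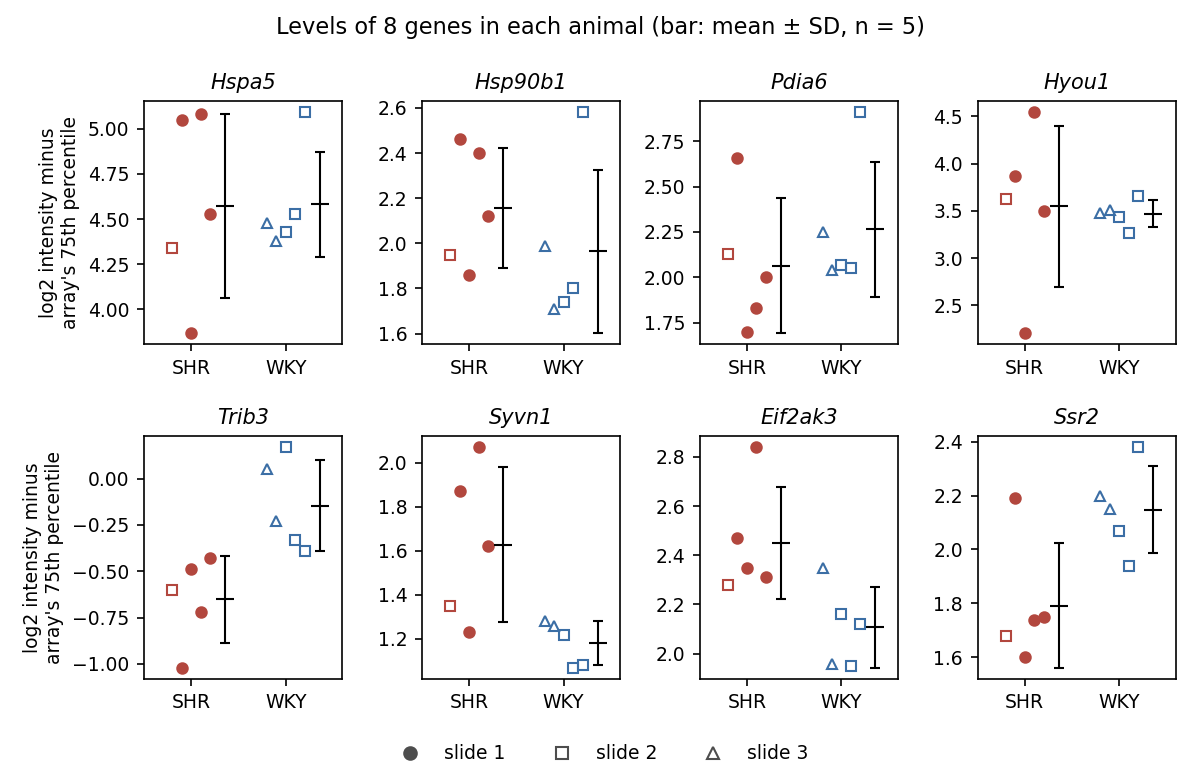
Level of 8 genes in each animal (log2 intensity minus the array's 75th percentile), SHR in red and WKY in blue, with a marker for each slide and the mean ± SD of 5 animals beside them. For Hspa5, Hsp90b1 and Pdia6, WKY 4-2 is the high WKY point. For Trib3 the strains do not overlap, and for Syvn1, Eif2ak3 and Ssr2 they overlap through 1 or 2 arrays.

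The disulfide genes had a median difference of 0.04, with 4 of 6 above 0. Pdia6, a protein disulfide isomerase, read 2.13, 2.66, 1.70, 1.83 and 2.00 in SHR and 2.25, 2.04, 2.07, 2.05 and 2.91 in WKY. WKY 4-2 and SHR 2-3 were high, whereas SHR 3-3, which was high for most chaperones, was among the low arrays. The difference was −0.20 ± 0.20 (SE, adjusted p = 0.620). The isomerase genes Pdia3, Pdia4 and P4hb differed by 0.05, 0.16 and 0.03, and Creld2 by −0.12. Ero1a, the oxidase that recharges the isomerases, differed by 0.05 (95% interval −0.11 to 0.22), with a residual SD of 0.08 at the 2.62nd percentile of all genes.

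In ER-associated degradation, which returns misfolded proteins to the cytosol, 3 of 4 genes lay above 0 with a median of 0.10. Syvn1 encodes HRD1, the ubiquitin ligase of the main degradation channel. It read 1.35, 1.87, 1.23, 2.07 and 1.62 in SHR and 1.28, 1.26, 1.22, 1.07 and 1.08 in WKY. Of the SHR arrays only SHR 3-1 lay within the WKY range. The difference was 0.45 ± 0.15 (SE, adjusted p = 0.108), 0.34 without SHR 3-3 and 0.55 without SHR 3-1 (adjusted p = 0.149 and 0.0504). The Syvn1 difference within slide 2 was 0.23.

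Sel1l, the partner of HRD1, differed by 0.13 (95% interval −0.07 to 0.32), and its other probe by −0.06. Derl1, a channel protein, differed by 0.08. Herpud1, which gathers the degradation complex, was described for its spread (difference −0.02, residual SD 0.39). It read 4.38, 4.59, 4.93, 4.15 and 4.95 in SHR and 4.62, 4.77, 5.06, 4.74 and 3.91 in WKY. WKY 4-2 and SHR 3-3, which were among the highest for Hspa5, were the lowest for Herpud1, and SHR 3-1, the lowest for Hspa5, was among the 3 highest.

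At the translocation channel the median difference was −0.01, with 2 of 5 above 0. Ssr2 encodes a subunit of the translocon-associated protein complex. It read 1.68, 2.19, 1.60, 1.74 and 1.75 in SHR and 2.20, 2.15, 2.07, 1.94 and 2.38 in WKY. SHR 2-3 lay within the WKY range and the other 4 SHR arrays below it. The difference was −0.36 ± 0.12 (SE, adjusted p = 0.116), and without SHR 2-3 it was −0.46 (adjusted p = 0.0350).

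Ssr1, another subunit of that complex, differed by −0.05 with the probe used and by 0.13 with a separate probe, which did not pass either (adjusted p = 0.691). That separate probe read 0.73, 1.03, 0.52, 0.94 and 0.67 in SHR and 0.56, 0.46, 0.57, 0.44 and 1.22 in WKY, again with SHR 3-1 lowest in its strain and WKY 4-2 highest in its own. The channel genes Sec61a1 and Sec61b differed by 0.03 and −0.01, and the signal peptidase gene Spcs1 by 0.05 with a residual SD of 0.07. Sar1b, the GTPase that starts the COPII coat, differed by 0.09 (95% interval −0.10 to 0.28).

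**Figure D3:**
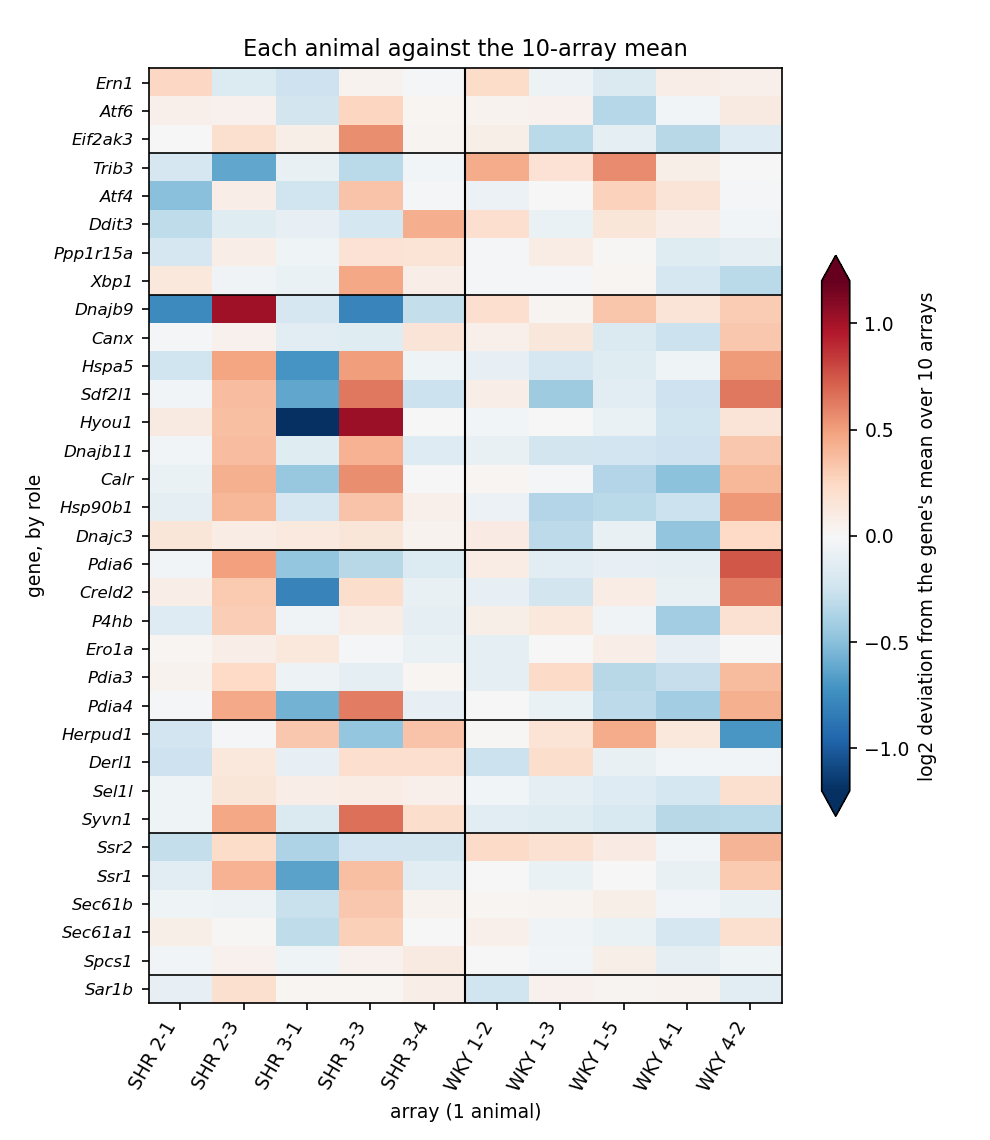
Deviation of each animal from the mean of the 10 arrays for each gene (log2, red above and blue below), with genes in rows grouped by role in the order of the plot of differences, and arrays in columns, SHR left of the vertical line. The chaperone and disulfide rows are mostly red in SHR 2-3 and WKY 4-2 and mostly blue in WKY 4-1, SHR 3-1 is blue for most of them, and Herpud1 runs the other way in SHR 3-1, SHR 3-3 and WKY 4-2.

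The spread between animals had a pattern shared by most of the listed chaperone and disulfide genes. WKY 4-2 was the highest WKY array for 8 of 9 chaperone and 5 of 6 disulfide genes, and for 18 of the 33 genes (54.5%, against 23.2% of all genes tested). SHR 3-1 was the lowest SHR array for 5 of 9 chaperone, 3 of 6 disulfide and 5 of 5 translocation genes. That made 17 of the 33 (51.5%), but SHR 3-1 was also the lowest SHR array for 40.4% of all genes. SHR 3-3 was the highest SHR array for 5 of 9 chaperone and 1 of 6 disulfide genes. That array was highest for 14 of the 33 (42.4%), near its share of 41.5% among all genes. SHR 2-3 was the highest SHR array for 10 of the 33 (30.3%, against 10.9% of all genes). WKY 4-1 was the lowest WKY array for 15 of the 33 (45.5%, against 18.4%). The median deviation of the 15 chaperone and disulfide genes from the 10-array mean was 0.38 in WKY 4-2, 0.37 in SHR 2-3, 0.21 in SHR 3-3, −0.21 in SHR 3-1 and −0.25 in WKY 4-1. In the other 5 arrays it lay between −0.12 and −0.01. In SHR 3-3 the roles parted, with 0.41 for the chaperone genes (7 of 9 above 0) and 0.03 for the disulfide genes (3 of 6 above 0). Over all genes the median deviation was 0.09 in SHR 3-3 and −0.11 in SHR 3-1, and between −0.04 and 0.04 in the other 8 arrays. With quantile normalization, chosen for this after the data were seen, the values for the same arrays were 0.42, 0.43, 0.16, −0.19 and −0.25.

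High and low arrays shared slides. WKY 4-2 and WKY 4-1 were both on slide 2, and SHR 2-3, 3-3 and 3-1 were all on slide 1. The part of the slide or of handling in this spread was not tested. For Hspa5 slide 1 spanned 3.87 to 5.08, and the 10 arrays 3.87 to 5.09. Of the 33 genes, 9 had a residual SD above the 90th percentile of all genes (0.35), where 1472 of the 14711 genes lay. They were 5 chaperone genes, 3 disulfide genes and Herpud1, and no sensor or factor gene was among them. All 9 listed chaperone genes tested were above the median of all genes. The further pathway genes described below were less spread. Other chaperones and folding enzymes had a median residual SD of 0.23, with 3 of 20 above the 90th percentile. Other disulfide enzymes had a median of 0.19, with 1 of 18 above it. Chaperones were not alone in spread. Above that percentile were 7 of 27 ATF4 and CHOP target genes. Of the cell type markers read below, so were 6 of 7 fibroblast, 6 of 9 granular duct and 5 of 9 macrophage markers. So were 3 of 9 acinar, 1 of 6 plasma cell and 0 of 3 parotid and sublingual markers. The median residual SD was 0.50 for fibroblast and for duct markers, against 0.38 for the chaperone genes. The ATF4 and CHOP target Atf3 had a residual SD of 0.76. Atf3 read −0.61 in SHR 3-4 and between −3.26 and −2.31 in the other SHR arrays. It was singled out after its values were seen.

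**Figure D4:**
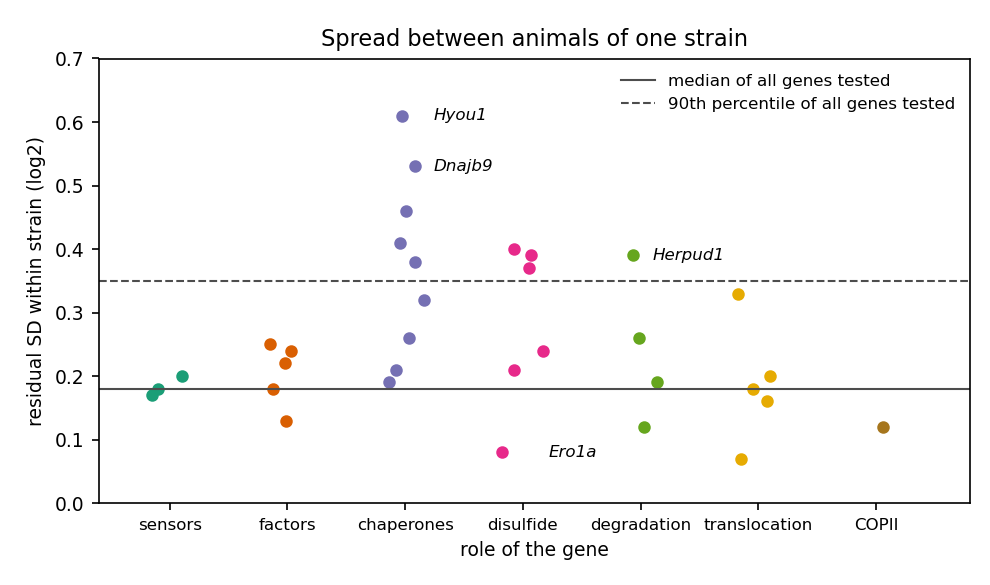
Residual SD within strain (log2, from limma's fit of 5 SHR and 5 WKY arrays) of each of the 33 genes by role, with the median (0.18) and the 90th percentile (0.35) of all 14711 genes as lines. The 9 points above the dashed line are 5 chaperone genes led by Hyou1 (0.61) and Dnajb9 (0.53), 3 disulfide genes and Herpud1.

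Genes with a stress element in the promoter sequences shown above fell mostly among the folding genes, so the following counts are not separate from the role. Of the 10 genes with either form, 5 were above the 90th percentile of spread and 8 had WKY 4-2 as the highest WKY array. Their differences ran from −0.12 to 0.22, with a median of 0.13. Of the 16 tested genes with a window and neither form, 3 were above that percentile, 6 had WKY 4-2 highest, and the differences ran from −0.50 to 0.45. Xbp1 itself, which carries the element, was lowest of all in WKY 4-2.

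Markers of cell types were read beside this spread. The summed linear level of 9 acinar markers was 719, 716, 653, 1190 and 926 in SHR and 555, 548, 614, 555 and 530 in WKY. It was thus highest in SHR 3-3 and lowest of each strain in SHR 3-1 and WKY 4-2. Oprpn and Pip (9.12 and 8.95 on the log2 scale in SHR 3-3) carried most of this sum. Aqp5, Bhlha15 and Chrm3 were also highest of the SHR arrays in SHR 3-3, but Smgc, Bpifa2, Slc12a2 and Ano1 were not. In WKY 4-2, Aqp5, Bhlha15, Slc12a2 and Ano1 were lowest of the WKY arrays, but Oprpn, Pip, Smgc, Bpifa2 and Chrm3 were not. The sum of 6 plasma cell markers, from cells that also secrete protein, ranged from 5.51 (SHR 3-1) to 8.13 (SHR 3-3) in SHR and from 7.15 to 8.30 in WKY, with 7.29 in WKY 4-2. Sdc1 and Pou2af1 (2.44 and 0.93 on the log2 scale in SHR 3-3) carried most of this sum. Those markers and Prdm1 were highest of the SHR arrays in SHR 3-3, whereas Mzb1 (−2.54) and Tnfrsf17 (−3.43) were lowest there. Mzb1 was highest of all in WKY 4-2 (−1.93). The sum of 9 granular duct markers was 417 in SHR 3-3 and between 1010 and 1430 in the other SHR arrays, and between 865 and 982 in WKY. The sum of 7 fibroblast markers was 5.61 in SHR 3-3, 13.1 to 14.6 in the other SHR arrays and 14.0 to 21.2 in WKY. The sum of 3 markers of the parotid and sublingual glands, which adjoin this gland, was 0.234 to 0.316 in SHR and 0.347 to 0.373 in WKY, with no overlap. The part of cell composition in these results was not tested.

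Between strains, by limma, 1 of 9 acinar markers was higher in SHR (Oprpn) and 1 lower (Smgc), and 0 of 9 granular duct and 0 of 6 plasma cell markers passed. In SHR 3 of 9 macrophage, 1 of 7 fibroblast and 1 of 3 parotid and sublingual markers were lower, against 1.51% higher and 2.85% lower among all genes. At an unadjusted p below 0.05 the counts were 5 of 9 acinar, 2 of 9 duct, 1 of 6 plasma cell, 5 of 9 macrophage, 3 of 7 fibroblast and 2 of 3 parotid and sublingual markers, against 20.3% of all genes. The summed macrophage level was 4.93 to 9.64 in SHR and 11.2 to 14.8 in WKY. All 6 plasma cell markers and all 7 fibroblast markers were above background on every array, and at least 8 of the 9 macrophage markers.

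Other genes of the same pathways were listed by role, with earlier results of these data known. Of 242 listed, 214 were tested. By limma 10 passed, near the share of all genes (641 of 14711, or 4.36%). Of the 10, 7 were higher in SHR (3.27%, against 1.51% of all genes) and 3 lower (1.4%, against 2.85%). The median difference of the 214 was 0.06. In the COPI list, the coat for return to the ER, 18 of 20 differences were above 0, the median was 0.18 and 1 of the 20 passed. Above 0 were 137 of the 214 further genes and 6851 of all 14711. Kdelr1, the receptor that returns escaped BiP and other KDEL proteins to the ER, rose in SHR. It read 0.82, 0.86, 1.00, 1.00 and 0.74 in SHR and 0.10, 0.37, 0.44, 0.28 and 0.47 in WKY, with no overlap. The difference was 0.55 ± 0.09 (SE, adjusted p = 0.00563), while Kdelr2 and Kdelr3 stood at 0.19 and 0.27 (adjusted p = 0.508 and 0.456).

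Emc1, a subunit of the ER membrane protein complex that inserts membrane proteins, was the lower gene with the largest difference. It read −1.64, −2.21, −2.69, −1.66 and −1.75 in SHR and −0.17, −0.38, −0.35, −0.97 and −0.63 in WKY, with no overlap. It fell by 1.49 on the log2 scale (SE 0.21, adjusted p = 0.00152). Only 1 probe measured Emc1, as was so for Kdelr1 and for Sec22b, Trappc4, Eif4ebp1, Rnf139 and Ubqln1 below. A sequence difference between the strains under these probes was not tested.

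In vesicle traffic, Sec22b, a SNARE of ER to Golgi transport, rose by 0.53 ± 0.10 (SE, adjusted p = 0.0146), and Trappc4, a subunit of the TRAPP tethering complexes, fell by 0.58 (SE 0.09, adjusted p = 0.00227). Among disulfide enzymes, Qsox1, a sulfhydryl oxidase of the secretory pathway, rose by 0.73 ± 0.13 (adjusted p = 0.00901; another probe 0.33, adjusted p = 0.0502). Tmx4, a membrane thioredoxin, fell by 0.54 (SE 0.12, adjusted p = 0.0233; another probe −0.31, adjusted p = 0.0560). The Tmx4 call was lost without SHR 3-1, WKY 1-2 or WKY 1-3 (adjusted p up to 0.0609).

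Among ATF4 and CHOP targets, 2 of 27 passed, both higher (7.41%, against 1.51% of all genes). Aldh18a1, an enzyme of proline synthesis, rose by 1.05 ± 0.20 (adjusted p = 0.0125), and its other probe gave 0.42 (adjusted p = 0.154). Eif4ebp1, a translation repressor, rose by 0.48 ± 0.12 (adjusted p = 0.0354). Leaving out any 1 of 7 arrays ended the call (SHR 2-1, 3-1, 3-4, WKY 1-2, 1-3, 4-1 and 4-2), with an adjusted p of at most 0.0926.

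In the degradation list, the ER ubiquitin ligase gene Rnf139 rose by 0.49 ± 0.11 (adjusted p = 0.0278) and Ubqln1, a ubiquitin-binding shuttle, by 0.38 ± 0.10 (adjusted p = 0.0464). Leaving out SHR 2-3 or any 1 of WKY 1-2, 1-3, 1-5 and 4-1 ended the Rnf139 call, with an adjusted p of at most 0.0746. The Ubqln1 call was lost without any 1 of 9 arrays, all but SHR 2-1 (adjusted p up to 0.113). It was also lost with normexp correction and with no filter on dim probes.

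In 3 lists no gene passed in limma, with 4 of 22 other stress regulators, 4 of 20 other chaperones and folding enzymes and 1 of 11 oligosaccharyltransferase genes at an unadjusted p below 0.05, against 20.3% of all genes. Their largest differences were 0.33 for Bhlha15 and 0.32 for Tmbim6 among other stress regulators, −0.71 for Prkcsh (adjusted p = 0.0543) and 0.58 for Dnajc10 among other chaperones and folding enzymes, and −0.33 for Ost4 and 0.32 for Stt3b in the oligosaccharyltransferase. The Prkcsh difference was 0.06 within slide 2, and it passed in 6 of 24 alternatives, among them normexp with quantile normalization, quantile normalization alone and the authors' values. Tmbim6 passed in 5 of the 24 (median scaling, array weights, both random blocks and without SHR 3-1). Of the others named here, Stt3b passed in 3, Dnajc10 in 2, and Bhlha15 and Ost4 in 1 each. None of the 10 calls remained with the slide as a fixed block, where the estimate rests on slide 2, 1 SHR array against 3 WKY arrays. All 10 kept their direction there, with Kdelr1 at 0.43, Emc1 at −0.99, Trappc4 at −0.48 and Aldh18a1 at 0.99 (adjusted p = 0.926, 0.779, 0.728 and 0.896).

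**Figure D5:**
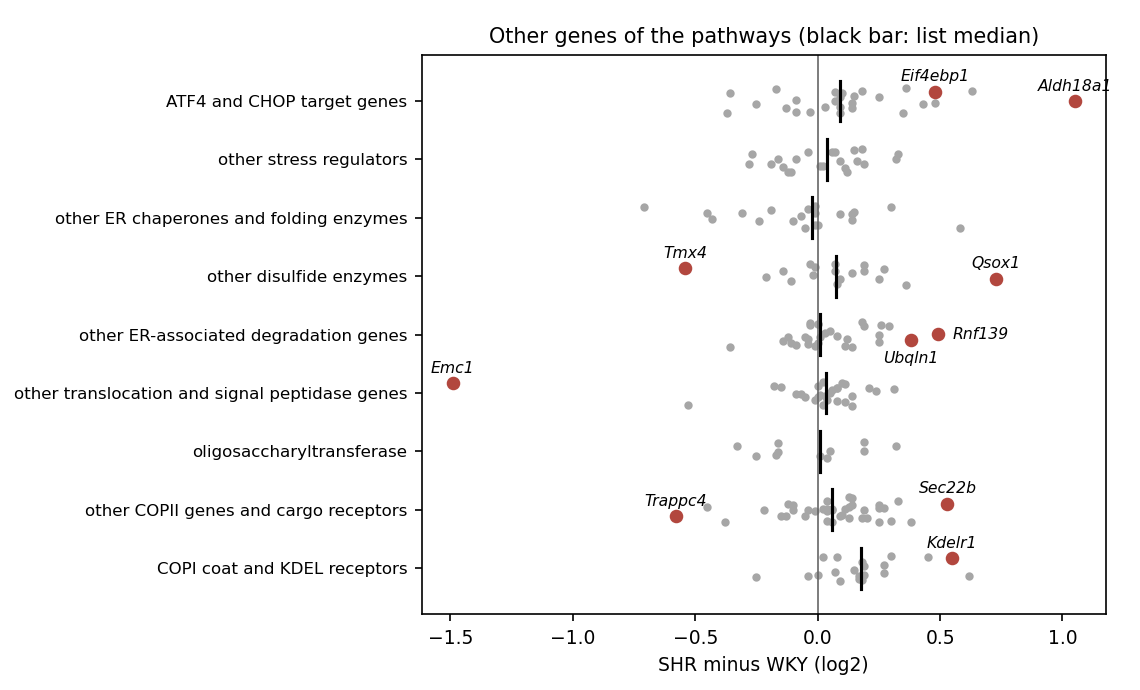
Difference between strains (SHR minus WKY, log2) of 214 further genes in 9 lists, 1 point per gene, with the 10 genes past an adjusted p of 0.05 in red and named and the list medians as black bars. Most points lie near 0, Emc1 lies farthest left at −1.49 and Aldh18a1 farthest right at 1.05.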

How the data were processed

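RNA of 10 submandibular glands was measured on one-colour Agilent arrays. Agilent Feature Extraction, per the file headers, gave the authors' processed signal, a background-corrected intensity. The authors' deposited table holds log2 values (all columns with a median of 7.19), and their processing is not stated in the labels or headers. From each log2 processed intensity, the 75th percentile of that array's non-control probes was subtracted. Outlier spots were set to missing, spots of 1 probe averaged, and probes kept when 5 or more of the 10 arrays read them well above background (29266 of 30367). Of these 30367 probes, 18005 had 1 gene symbol through a RefSeq accession, 0 several and 12362 none. The brightest probe stood for each of 14711 genes. Strains were compared with limma (lmFit, eBayes, no covariates, two-sided), Benjamini-Hochberg adjusted over all genes, threshold 0.05. The fit and the motif search were tested on simulated data. One promoter sequence is counted but not reported here.

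The labels gave each array's strain, and the series text names 5 rats per strain. Arrays scanned in 1 pass, by the scan times in the headers, were taken as 1 slide. The genes named with all values were Hspa5, Xbp1, Atf4, Ddit3, any past the threshold and further genes by absolute difference up to 14. In each further list up to 3 genes past the threshold were named, or 2 where none passed. The list's members, the further lists and this rule were chosen with earlier results of these data known. The plan assumed a mean signal for normexp; the median signal was used. It also planned a look at protein ends, which was not done, as no protein sequences were used here. Alternatives were normexp (offset 50), quantile or median scaling, the authors' values, other filters, all probes of a gene averaged, array weights, an intensity trend, the slide or the first title number as a block, slide 2 alone and leaving out each array. Python 3.11.15 (pandas 2.3.3, numpy 2.4.6, matplotlib 3.10.9) and R 4.3.3 (limma 3.58.1) were used.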

Additional observations from a re-analysis of the deposited data

Results flagged for a closer look

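In 98 groups of 5 arrays (49 named or listed genes in each strain) the highest or lowest array was set against the others by Dixon's ratio (critical value 0.71 for 5), and 10 groups passed, 6 of them among the 66 groups of the 33 listed genes. Independent normal values would give about 1 in 20 groups. These groups share the same arrays, and the share over all genes is not given here. The 16 further genes among them were picked by their strain differences. WKY 4-2 stood above the other WKY arrays in 7 of the 10. Its level was 5.09 for Hspa5 (others 4.38 to 4.53), 1.34 for Dnajb11 (0.77 to 0.93), 2.91 for Pdia6 (2.04 to 2.25) and 3.21 for Ssr1 (2.81 to 2.90). It was 0.85 for Aldh18a1 (0.22 to 0.40), 0.18 for Dnajc10 (−1.15 to −0.82) and 0.80 for Rnf139 (0.47 to 0.55). SHR 3-4 stood above the other SHR arrays for Ddit3 at 1.06 (0.32 to 0.52), SHR 2-3 for Ssr2 at 2.19 (1.60 to 1.75), and WKY 1-5 above the other WKY arrays for Eif4ebp1 at 5.14 (4.83 to 4.87).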

How the results depend on the processing

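Over 24 alternatives, 792 values of the 33 listed genes were recomputed. Of these 10 passed the threshold, 70 had another sign, all of them differences that were not past the threshold in the fit reported, and 15 genes kept their sign throughout. With the slide as a random block 2 genes were higher (Eif2ak3, Syvn1) and 2 lower (Trib3, Ssr2), as with a random block made of the titles' first number (2 and 2); both fits estimated a negative correlation within blocks (−0.19 and −0.16). All genes called were then 1350 higher and 2101 lower with the slide, and 669 and 1110 with the title number, against 222 and 419, and the further pathway genes 32 and 15, and 12 and 6, against 7 and 3. With the slide as a fixed block 12 genes were higher and 32 lower, within slide 2 alone 14 and 38, and 0 and 0 further pathway genes in both. In both fits the median was −0.37 for the factor genes, −0.09 for degradation and −0.08 for the COPII gene. Genes called higher were 351 with quantile normalization, 336 with median scaling and 423 with the authors' values, and further pathway genes called lower 5 with quantile normalization and 6 with the authors' values. Leaving out each array gave 125 to 237 genes higher (lowest without WKY 1-3) and 218 to 512 lower (lowest without WKY 1-3), 4 to 9 further pathway genes higher (4 without WKY 1-2, 1-3 or 4-1), 0 to 2 listed genes lower (2 without SHR 2-3) and 1 to 3 that did not overlap (3 without SHR 2-3). The causes were not tested. Counts of the listed chaperone and disulfide genes by array were 13 for WKY 4-2 in 4 other scalings and 7 or 8 for SHR 3-1. No paired analysis was possible because the strains share no replicate numbers. The number of arrays limits precision, and all 33 probes were above background on every array.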

Other observations

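The recognition sequence TGACGTGG was also searched for in the windows of the further pathway genes. It lay in 15 of 208 (7.21%), against 0.681% of all genes with a window. The 15 include the COPI and Golgi traffic genes Copa, Copb1, Copb2, Arf1, Arf4, Gbf1, Stx5 and Kdelr3, the COPII gene Sec23a and the degradation genes Vcp, Ube2j1 and Ube2g2. By limma 0 of the 15 passed the threshold (lowest adjusted p = 0.174, 4 of 15 at an unadjusted p below 0.05, against 20.3% of all genes). Of the differences 14 of 15 were above 0, as were 137 of the 214 further genes and 6851 of all 14711, and they ran from −0.05 to 0.58 with a median of 0.17, against −0.02 over all genes. The ER stress response element lay in 2 of the 208 (0.962%), Derl3 and Ero1b. Derl3, a paralog of Derl1, differed by 0.00 and Ero1b, a relative of Ero1a, by 0.36 (adjusted p = 0.234). These groups were formed after the data were seen, and no test was made of them.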
